A study of Mus musculus with 6 samples.

Results

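The BCL2 family decides whether a cell releases cytochrome c from its mitochondria and enters apoptosis. The genes described here are 10 of its members, chosen by gene symbol among the 16022 genes of the deposited table: the pro-survival genes Bcl2, Bcl2l1 and Mcl1, the effectors Bax and Bak1, and the BH3-only genes Bid, Bad, Bcl2l11, Bbc3 and Pmaip1. All 10 were present and passed the filter on low counts. They were measured by RNA sequencing in 3 HDAC6 knockout and 3 wild-type (WT) libraries of LSK cells from mouse bone marrow, a fraction without lineage markers and with high Sca-1 and c-kit in which hematopoietic stem cells and multipotent progenitors are found. The genotypes are labelled KO and WT with no allele, Cre or strain, and age and sex were not used here. Whether each library is a different mouse is not stated in the labels, and p-values therefore reflect the spread among these 6 libraries, which may be technical.

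Pro-survival proteins (BCL2, BCL-XL from Bcl2l1, and MCL1) hold the effectors BAX and BAK in check on the mitochondrial outer membrane. BH3-only proteins report stress: they bind the pro-survival proteins, and some of them activate BAX and BAK directly. In mice MCL1 is required for the survival of hematopoietic stem cells, and much of the control of the family acts on protein stability and phosphorylation, which RNA counts do not show.

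Of the 10 members, 0 passed the edgeR test over all genes, where 0.00777% of the 12875 genes tested passed. Bax and Bad were the members whose knockout libraries all lay above all WT libraries, which held for 8.86% of all genes. Their folds over WT were 1.28 and 1.24, with 95% intervals of 1.04 to 1.57 and 0.961 to 1.61 before any adjustment over genes. Mcl1 and Bid had nearly equal group means, and Pmaip1 and Bbc3, both rare, varied so much between libraries of the same genotype that their differences were poorly determined.

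The libraries held 25993988 to 28743694 counts. Hdac6 itself stood at 9.62, 7.69 and 11.3 CPM (counts scaled to library size) in the knockout libraries, against 68.0, 58.2 and 54.3 CPM in the WT libraries, and was the 1 gene of 12875 tested that edgeR called (0.00777% of genes, log2 fold change -2.66, adjusted p = 0.000594). All 10 LSK and stem cell markers were detected. They summed to 3355 to 4555 CPM in the knockout and 4412 to 5025 CPM in WT. The sums overlapped, but single genes of the list separated, in both directions. Ly6a, the Sca-1 gene, was higher in the knockout, at 82.05, 119.2 and 118.9 CPM against 60.26, 68.71 and 66.22 CPM in WT. Kit was lower, at 724.6, 816.8 and 1081 CPM against 1322, 1366 and 1127 CPM. Cd34 and Mecom were also lower in the knockout without overlap. Mature neutrophil markers summed to 18.5 to 37.3 CPM in the knockout and 44.6 to 112 CPM in WT, without overlap. Of these, Ltf, Ngp, S100a8 and Mmp9 were lower in the knockout without overlap, and the other genes of the list overlapped. Cxcr2, for example, had 3.855, 8.37 and 6.16 CPM in the knockout against 5.10, 5.05 and 5.68 CPM in WT. Granulocyte and monocyte progenitor markers reached 17890 CPM in knockout replicate 2, against 5172 to 7967 CPM in the other 5 libraries. Most of that sum was Mpo, at 14150 CPM in knockout replicate 2. Cst7 had 114.9, 147.8 and 76.4 CPM in the knockout against 59.8, 62.6 and 67.8 CPM in WT. Ly86 had 18.8, 57.7 and 22.25 CPM against 7.82, 15.1 and 14.3 CPM. Both were higher in the knockout without overlap, and the other genes of the list overlapped. The remaining marker sums overlapped: T and natural killer cell markers at 324 to 427 CPM in the knockout and 345 to 384 CPM in WT, erythroid markers at 128 to 286 and 120.1 to 175 CPM, B cell markers at 66.7 to 101 and 57.7 to 90.7 CPM, macrophage markers at 78.4 to 103 and 76.3 to 99.2 CPM, and stromal and endothelial markers at 126 to 173 and 143 to 159.6 CPM. Most of the T and natural killer cell sum was Nkg7, at 256 to 312 CPM in the knockout and 260.3 to 311 CPM in WT. Single genes of that list lay higher in the knockout without overlap: Il2rb at 8.77, 23.6 and 33.3 CPM against 2.87, 5.76 and 5.15 CPM in WT, Cd7 at 4.22, 17.9 and 14.9 CPM against 0.646, 1.73 and 3.10 CPM, and Prf1 at 1.80, 4.46 and 1.01 CPM against 0, 0 and 0.530 CPM. Lck went the other way without overlap, at 47.5, 43.85 and 57.3 CPM in the knockout against 76.7, 63.4 and 58.4 CPM in WT. The T cell marker Cd3e was at 0 in all 3 knockout libraries and in WT replicates 1 and 2. Cd3g, also scarce, was higher in the knockout without overlap, at 0.184, 0.254 and 0.471 CPM against 0 in every WT library. Cd3d was at 0.399 CPM in knockout replicate 2 and at 0 in every other library. Knockout replicate 3 stood apart from its group: over all genes its counts differed less from those of the WT libraries (chi-square per degree of freedom 34.2, 32.9 and 24.9 against WT replicates 1, 2 and 3) than from knockout replicates 1 and 2 (55.8 and 51.5). In bulk RNA, fewer cells of a type and less RNA per cell cannot be told apart, and the part of these markers in the results below was not tested.

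Promoters of 3 members are shown because each holds a short motif of a transcription factor that is itself among the regulators described further on. The sequences are the 250 bases before a RefSeq transcription start, from GRCm38.p6, which is not the build named for the counts (GRCm39), and none of the 3 windows overlaps an exon of the GENCODE M21 annotation. They are written 5′ to 3′ on the strand of the gene. Capitals mark the E-box CACGTG, bound by MYC and related factors, in Bax (chr7:45466899-45467148, minus strand), and the FOXO motif TGTTTAC or its reverse complement in Bcl2l11 (chr2:128125788-128126037, plus strand) and Bbc3 (chr7:16310011-16310260, plus strand).
Bax: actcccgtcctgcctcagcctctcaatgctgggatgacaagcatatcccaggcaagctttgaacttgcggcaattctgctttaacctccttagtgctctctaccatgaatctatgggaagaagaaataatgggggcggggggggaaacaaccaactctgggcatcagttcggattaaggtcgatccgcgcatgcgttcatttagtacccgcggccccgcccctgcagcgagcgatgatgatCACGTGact
Bcl2l11: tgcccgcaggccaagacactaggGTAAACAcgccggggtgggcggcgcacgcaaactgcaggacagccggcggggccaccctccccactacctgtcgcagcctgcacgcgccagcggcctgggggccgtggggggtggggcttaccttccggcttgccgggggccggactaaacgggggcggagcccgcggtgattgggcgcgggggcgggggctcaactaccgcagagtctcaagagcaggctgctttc
Bbc3: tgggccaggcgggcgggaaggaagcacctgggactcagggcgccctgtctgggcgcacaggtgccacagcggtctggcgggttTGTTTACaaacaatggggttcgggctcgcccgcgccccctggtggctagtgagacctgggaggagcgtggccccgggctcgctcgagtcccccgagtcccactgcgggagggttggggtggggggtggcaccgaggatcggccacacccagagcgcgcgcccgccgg

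The matches begin at position -9 from the start in Bax, -227 in Bcl2l11 and -167 in Bbc3. Searched on both strands of 15 promoters of 9 members, some of which overlap, CACGTG occurred in 2 windows, of Bax and Bbc3, and in 6.02% of all 32851 promoter windows of this length. The FOXO motif occurred in 2 windows, of Bcl2l11 and Bbc3, and in 3.17% of all windows. The GC box GGGCGG occurred in 10 of the 15 windows and in 32.7% of all windows, and CCAAT in 4 of the 15 and 33.8% of all windows. The ATF4 motif TGATGCAA (0.791% of windows) and a p53 site of adjacent half-sites (0.00913% of windows) had 0 matches in these windows. Pmaip1 was the member not searched, so these counts do not cover it. No motif searched lies within another. A match of letters describes the sequence and is not evidence that a factor binds there.

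The order of the family by level was read from FPKM, the authors' values normalised for transcript length and library size, since CPM cannot rank genes of different length. Bax ranked first in all 6 libraries, with 139, 133.58 and 108.97 FPKM in the knockout libraries against 107.55, 107.75 and 98.99 FPKM in the WT libraries. Bid ranked second in all 6, at 62.58 to 85.75 FPKM over both groups. Bad (median 34.8 FPKM), Bcl2 (25.98) and Bcl2l1 (25.9) followed, and the ranges of these neighbours overlapped, so their order is not settled. Mcl1 came sixth in every library at 8.88 to 11.49 FPKM, and Bcl2l11 seventh at 2.23 to 3.52 FPKM. Bak1, Pmaip1 and Bbc3 had medians of 1.66, 1.32 and 1.195 FPKM and exchanged ranks between libraries. At the mRNA level BAX was therefore the abundant effector and BAK the scarce one, with Bak1 at 1.07 to 2.19 FPKM. A gene whose range over the 6 libraries is clear of its neighbours keeps its rank in both genotypes by definition, so this is no test of genotype.

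**Figure D1:**
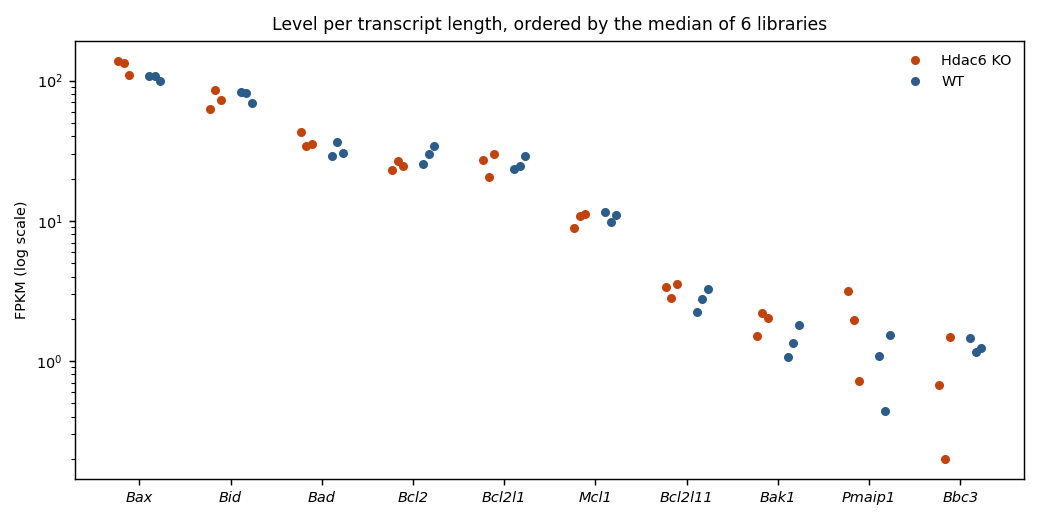
FPKM of each member (log scale) in each HDAC6 knockout library (left, orange) and WT library (right, blue), with genes ordered by the median of the 6 libraries. Bax and Bid hold ranks 1 and 2 in every library, Mcl1 and Bcl2l11 hold ranks 6 and 7, and Bak1, Pmaip1 and Bbc3 intermingle at the bottom.

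Among the pro-survival genes, Bcl2, which encodes the founding member of the family, had 110.1, 124 and 103 CPM in the knockout libraries, against 104, 130.15 and 139 CPM in the WT libraries. The groups overlapped, since WT replicate 1 lay among the knockout values. Its log2 fold change of -0.15 (SE 0.13) equals a fold of 0.903 with a 95% interval from 0.734 to 1.11 (edgeR adjusted p = 0.648). Single libraries moved it between -0.26, with WT replicate 1 left out, and -0.05, with WT replicate 3 left out. Bcl2l1, whose main product BCL-XL protects erythroid cells and platelets in mice, had 66.0, 48.9 and 67.7 CPM in the knockout and 52.1, 54.1 and 65.3 CPM in WT. Knockout replicate 2, the library with the high granulocyte and monocyte progenitor markers, was the lowest of all 6 for this gene and the other knockout libraries were the highest. The log2 fold change of Bcl2l1 was 0.09 (SE 0.16, edgeR adjusted p = 0.822), and 0.23 without that library. Mcl1, whose product is short-lived, had 30.7, 37.0 and 36.3 CPM in the knockout and 36.8, 31.2 and 35.8 CPM in WT. The group means were 34.7 ± 3.46 and 34.6 ± 3.00 CPM (SD, n = 3 each). Its 95% interval ran from 0.796-fold to 1.26-fold and reflects the spread among these 6 libraries, which may be technical.

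Among the effectors, Bax, the BCL2 relative that oligomerises into membrane pores, had 95.2, 90.2 and 70.5 CPM in the knockout libraries, against 68.6, 67.3 and 64.7 CPM in the WT libraries. The groups did not overlap, but knockout replicate 3 exceeded the highest WT library by little, while replicates 1 and 2 stood well above it. The mean was 85.3 ± 13.1 CPM in the knockout and 66.8 ± 2.01 CPM in WT (SD, n = 3 each). The log2 fold change was 0.35 (SE 0.14), a fold of 1.28 with a 95% interval from 1.04 to 1.57. A two-sided exact permutation test gave p = 0.1, its minimum for 3 against 3 libraries, and the edgeR p was 0.0266 before and 0.334 after adjustment over all genes. Leaving out knockout replicate 1, 2 or 3 gave log2 fold changes of 0.27, 0.31 and 0.47, with edgeR adjusted p of 0.696, 0.744 and 0.0883. Bak1, the partner effector, had 77, 112 and 98 counts in the knockout against 52, 65 and 84 counts in WT. Knockout replicate 1 lay below WT replicate 3, so the groups overlapped. Its log2 fold change of 0.51 (SE 0.40, edgeR adjusted p = 0.585) came from few counts and had an interval from 0.773-fold to 2.61-fold. A neighbouring gene on the opposite strand, Ggnbp1, overlaps Bak1 in GENCODE M21 and had 2 to 55 counts per library. Bax overlaps Gm45808, a protein-coding gene on its own strand, which has no counts of its own here. The genes that overlap Bcl2, D630008O14Rik on the opposite strand and Mir3473f and Gm37053 on its own, likewise have none. Whether the counting used strand is not stated, so reads of the opposite-strand neighbours may not be told apart. Strand does not separate those on the same strand.

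**Figure D2:**
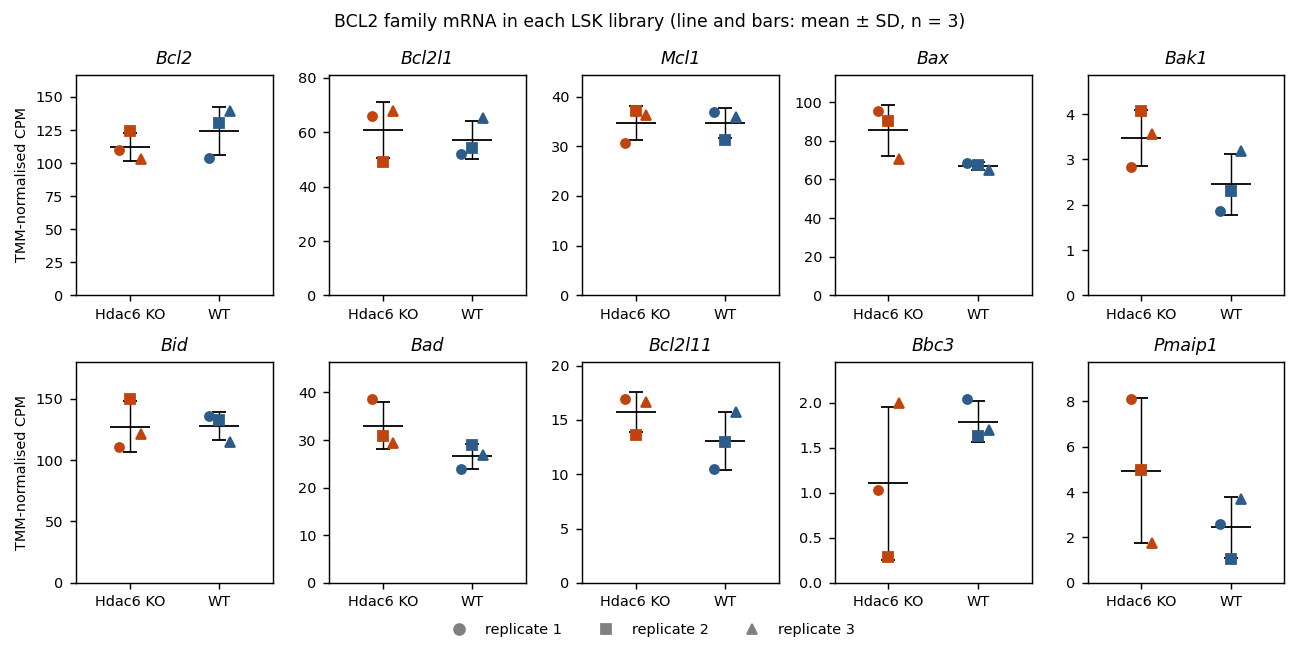
TMM-normalised CPM of the 10 members in each library, with HDAC6 knockout on the left and WT on the right of each panel; symbols are replicates, and the line and bars are the mean ± SD (n = 3). Bax and Bad are the panels in which all knockout points lie above all WT points, and Pmaip1 and Bbc3 show the widest spread within the knockout relative to their means.

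Among the BH3-only genes, Bad, whose product binds BCL2 and BCL-XL unless survival kinases phosphorylate it, had 38.7, 30.9 and 29.5 CPM in the knockout libraries against 23.9, 29.03 and 26.8 CPM in the WT libraries. The groups did not overlap, but WT replicate 2 lay just under knockout replicate 3, and knockout replicate 1 stood apart as the highest. For Bad the log2 fold change was 0.31 (SE 0.17), a fold of 1.24 with a 95% interval from 0.961 to 1.61 (edgeR adjusted p = 0.427). It dropped to 0.19 with knockout replicate 1 left out (edgeR adjusted p = 0.837). The counts of Bad were not whole in 5 of 6 libraries. Gpr137, on the opposite strand, overlaps it in GENCODE M21 and had 420 to 509 counts per library, so the level of Bad carries that uncertainty. Bid, which caspase-8 cleaves into an active fragment, had 110.46, 150.05 and 121 CPM in the knockout and 136, 132 and 115 CPM in WT. Knockout libraries were both the highest and the lowest, and the fold was 0.997 with an interval from 0.809 to 1.23. Bcl2l13 overlaps Bid on the opposite strand in GENCODE M21 and had 1951 to 2695 counts per library, so the same uncertainty of strand applies to Bid.

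Bcl2l11 encodes BIM, which kills blood cells deprived of cytokines and is a known FOXO target. It had 16.965, 13.6 and 16.6 CPM in the knockout libraries, against 10.4, 12.9 and 15.7 CPM in the WT libraries. The groups overlapped, with knockout replicate 2 below WT replicate 3, and the log2 fold change was 0.27 (SE 0.22, edgeR adjusted p = 0.601). Leaving out WT replicate 1 gave 0.14, and leaving out WT replicate 3 gave 0.44. Bbc3 encodes PUMA, a p53 target that mediates the death of irradiated stem and progenitor cells in mice. It had 28, 8 and 55 counts in the knockout against 57, 46 and 45 counts in WT. Knockout replicate 3 lay within the WT range, and replicate 2, the library with the high progenitor markers, had the fewest counts. The log2 fold change was -0.70 (SE 0.69, edgeR adjusted p = 0.671), with -0.24 when knockout replicate 2 was left out and -1.44 when replicate 3 was. Pmaip1 encodes NOXA, which binds MCL1 and promotes its breakdown. It had 221, 137 and 48 counts in the knockout against 72, 29 and 98 counts in WT. Knockout replicates 1 and 2 were the highest of all 6, whereas replicate 3 lay within the WT range. The log2 fold change of 1.02 (SE 0.60, edgeR adjusted p = 0.472) was the largest among the 10 members, with an interval from 0.804-fold to 5.10-fold, and it was 0.46 without knockout replicate 1 and 1.46 without WT replicate 3.

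Spread within a genotype differed between members. The coefficient of variation over the knockout libraries was 77.4% for Bbc3 and 64.5% for Pmaip1, and between 9.36% and 17.8% for the other 8 members. In WT it was 12.5% for Bbc3 and 55.2% for Pmaip1, and 3.01% for Bax, the lowest. The biological coefficient of variation that edgeR estimated was 0.51 for Pmaip1, above the 0.387 fitted for genes of its abundance, and 0.557 for Bbc3, near its fitted value of 0.544. The estimates of the other 8 members were below their fitted values.

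Over the family, edgeR called 0 members (0.00777% of all genes were called), 1 had an unadjusted p under 0.05 (Bax, where 13.4% of all genes did), and DESeq2 called 0 (1.35% of all genes). Groups did not overlap for 2 of 10 members on the higher side, against 8.86% of all genes, and for 0 on the lower side, against 9.7%. The log2 fold change was above 0 for 7 members, against 49.5% of all genes. Its median was 0.18 over the members and -0.0034 over all genes. The median was 0.08 under the stricter filter on low counts, which removed Bak1, Bbc3 and Pmaip1, 0.11 with library size alone as scaling, and 0.09 without WT replicate 1.

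**Figure D3:**
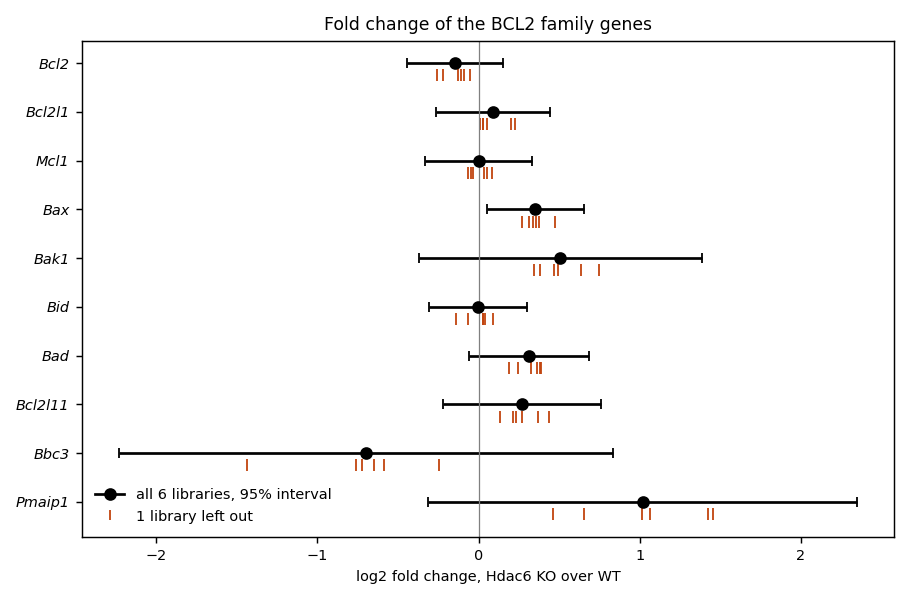
Log2 fold change (HDAC6 knockout over WT) of each member with its 95% interval from edgeR on all 6 libraries (black), and the values with 1 library left out (orange ticks). The interval lies above 0 for Bax alone among the 10, before any adjustment over genes, and is widest for Bbc3 and Pmaip1.

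The ratio of a pro-survival gene to Bax within a library needs no scaling between libraries. These ratios were chosen after the values had been seen and carry no test. The Bcl2 to Bax ratio of FPKM was 0.165, 0.199 and 0.228 in the knockout libraries, against 0.236, 0.279 and 0.343 in the WT libraries. All knockout values lay below all WT values, with knockout replicate 3 close to WT replicate 1. The Bcl2l1 to Bax ratio was 0.208 ± 0.062 in the knockout and 0.245 ± 0.0399 in WT (SD, n = 3 each), and the Mcl1 to Bax ratio was 0.0823 ± 0.0195 and 0.103 ± 0.0104. Both of these overlapped between the groups.

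**Figure D4:**
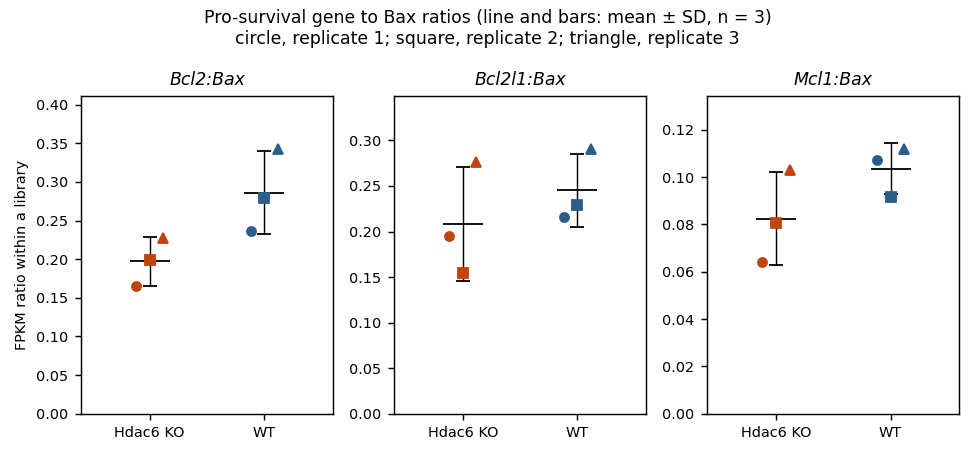
Ratio of the FPKM of Bcl2, Bcl2l1 and Mcl1 to that of Bax within each library, HDAC6 knockout on the left and WT on the right; the line and bars are the mean ± SD (n = 3). The groups separate in the Bcl2 panel, where knockout values reach 0.228 and WT values begin at 0.236, and overlap in the other panels.

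The rest of the apoptotic pathway was read from lists of other genes, of which edgeR called 0 in any list. Of the 80 genes tested in these lists, 11 had an unadjusted p under 0.05 by edgeR (13.8%, against 13.4% of all genes). DESeq2 called 1, Pim2 (1.35% of all genes). Of the 80, 43 were above WT, against 49.5% of all genes. Groups did not overlap for 8 on the higher side and 6 on the lower side, against 8.86% and 9.7% of all genes. The counts by list below are to be read beside these shares. Of the other BCL2 family genes, 12 of 15 were tested, 2 were above and 10 below WT, and the median log2 fold change was -0.25. The mitophagy receptor genes Bnip3 (-0.38, unadjusted p = 0.0266, adjusted p = 0.334) and Bnip3l (-0.25) led by p. Bcl2a1a, a copy of the pro-survival gene A1 that neutrophils express strongly, followed with 4.08, 0 and 7.11 counts in the knockout against 20.17, 11.55 and 18.75 counts in WT. The sum of the mature neutrophil markers was likewise lower in the knockout, although only some genes of that list separated. The part of these markers in the Bcl2a1a difference was not tested. The near-identical copies of Bcl2a1a, Bcl2a1b (-0.46) and Bcl2a1d (0.46), lay on opposite sides, and reads shared between the copies make each level uncertain.

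Downstream of the mitochondria, all 13 apoptosome and caspase genes were tested, with 10 above WT (49.5% of all genes were) and a median of 0.09. Cycs, the cytochrome c gene, had 405, 378 and 252 CPM in the knockout libraries against 223, 254 and 256 CPM in the WT libraries. Knockout replicate 3 lay within the WT range, and the log2 fold change was 0.50 (adjusted p = 0.307 by edgeR). Endog, a mitochondrial nuclease, was at 0.83 to 2.86 CPM in the knockout and 0.46 to 0.61 CPM in WT, and Casp2, which encodes an initiator caspase, had a log2 fold change of -0.27 with groups that did not overlap. Of 7 inhibitor of apoptosis genes, 2 were above WT. Xiap, the direct caspase inhibitor, had 40.6, 47.6 and 45.9 CPM in the knockout against 50.1, 62.1 and 64.0 CPM in WT. These groups did not overlap (log2 fold change -0.39, unadjusted p = 0.0193, adjusted p = 0.314 by edgeR). Birc5 (0.38), which encodes the mitotic protein survivin, and Naip5 (-0.44), an inflammasome sensor, followed.

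Of 11 death receptor genes, 8 were above WT (49.5% of all genes were) with a median of 0.06, and 0 had an unadjusted p under 0.05. Tnfrsf1a, a TNF receptor, had a log2 fold change of 0.28, Tnfrsf10b, the mouse TRAIL receptor, 0.58, and the deubiquitinase gene Cyld -0.14. Among 13 genes of MCL1 and BCL2 protein turnover and phosphorylation, 8 were above WT with a median of 0.15. Pim2, a kinase that phosphorylates BAD, had 124, 84.5 and 77.7 CPM in the knockout libraries against 61.0, 53.1 and 65.4 CPM in the WT libraries. All knockout values were above all WT values, and the log2 fold change was 0.67 (SE 0.18, edgeR unadjusted p = 0.0037, adjusted p = 0.298), while DESeq2 called it (adjusted p = 0.0392). Its relative Pim1 had 31.1, 26.5 and 22.4 CPM in the knockout and 15.3, 18.3 and 19.8 CPM in WT, also without overlap (log2 fold change 0.58, edgeR adjusted p = 0.307). Marchf5, a mitochondrial ubiquitin ligase, had 0.53 with overlapping groups.

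Of 11 genes of the mitochondrial outer membrane and of fission, 10 were above WT (49.5% of all genes were) with a median of 0.14. Mtch2, the receptor of truncated BID, had a log2 fold change of 0.33 (unadjusted p = 0.0391, adjusted p = 0.357 by edgeR), Vdac3 0.21 and Vdac2, a channel that binds BAK and BAX, 0.18. Of 13 tested regulators of BH3-only genes, 3 were above WT and 10 below. Atf4, which drives stress-induced Pmaip1 transcription, had 120.4, 108 and 118 CPM in the knockout against 82.4, 96.5 and 93.1 CPM in WT, without overlap (log2 fold change 0.35, edgeR adjusted p = 0.307). Foxo3, which encodes a factor of the FOXO family whose motif is capitalised in Bcl2l11 and Bbc3 above, had 35.9, 40.3 and 53.8 CPM in the knockout against 47.6, 59.3 and 66.3 CPM in WT. Its groups overlapped, with knockout replicate 3 above WT replicate 1 (log2 fold change -0.41, edgeR adjusted p = 0.369). Other FOXO genes of the list were named after their values were seen. Foxo1 had 3.415, 2.65 and 3.52 CPM in the knockout against 7.54, 4.53 and 3.75 CPM in WT. The Foxo1 groups did not overlap (log2 fold change -0.72, edgeR adjusted p = 0.410), while those of Foxo4 did (-0.65, edgeR adjusted p = 0.714). Ddit3, which encodes the stress factor CHOP, had -0.44 without overlap (edgeR adjusted p = 0.376). Named after its values were seen, because an E-box is capitalised in Bax, Myc had a log2 fold change of 0.21 with overlapping groups (edgeR adjusted p = 0.378), and Trp53, which encodes p53, 0.03.

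**Figure D5:**
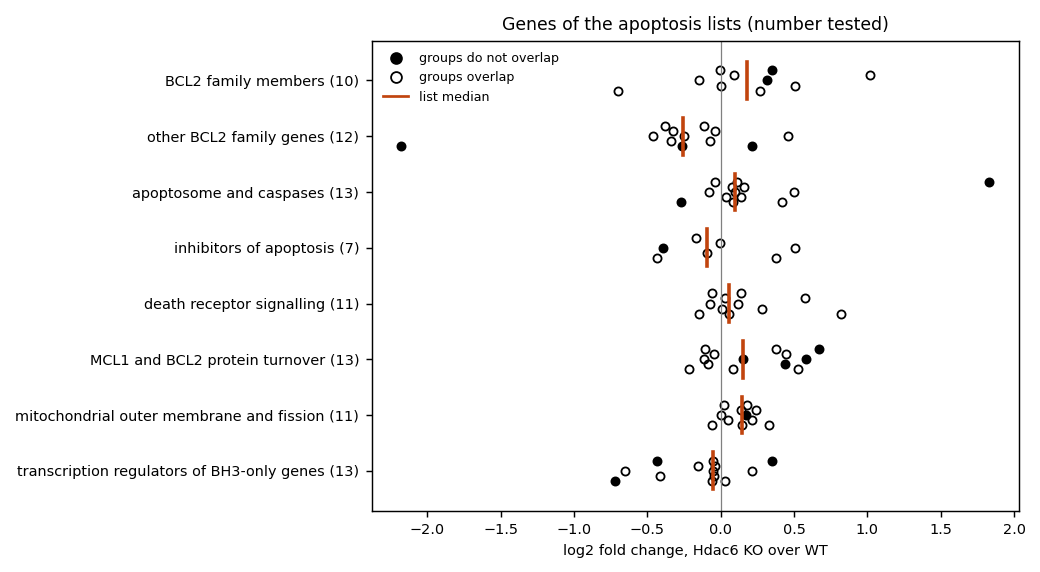
Log2 fold change (HDAC6 knockout over WT) of each tested gene of the BCL2 family members and the 7 other lists, with filled points where the groups do not overlap and an orange line at the list median. Medians run from -0.25 for the other BCL2 family genes to 0.18 for the members, and 0 of these genes passed the edgeR threshold.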

How the data were processed

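RNA sequencing of 6 LSK libraries gave a table with a read count and an FPKM value per gene and library, per the file headers. Per the submitters' processing notes, GRCm39, featureCounts 2.0.3, DESeq2, SAMtools 1.13 and HISAT2 2.2.1 were used. The role of each, the gene annotation and the strand setting are not stated. Estimated counts were rounded, since 19.6% to 20.9% of those deposited for a library were not whole. The FPKM values the authors deposited were used for levels between genes, ratios and 1 alternative.

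Knockout was compared with WT over the whole table in edgeR 4.0.16 and R 4.3.3 by its quasi-likelihood test (filterByExpr with a minimum count of 10, TMM factors of 0.952 to 1.03, robust dispersion). Calls needed an adjusted p (Benjamini-Hochberg) under 0.05 over 12875 genes. SE is the log2 fold change over the root of F, and intervals use the degrees of freedom of that test. A count of 0 allows up to 3 counts, or 0.104 to 0.115 CPM, for counting error only. Chi-square per degree of freedom between libraries was 24.9 to 87.3, so each counted as 1 sample. Named genes were all members, Hdac6 and the 3 genes with the smallest p of each list; others were named after their values were seen. Members and lists were chosen with earlier results of these data known. The alternatives were RLE or library-size scaling, DESeq2 1.42.0, no filter or a stricter one of 5 CPM in 3 libraries, limma 3.58.1 (voom, and on log2(FPKM + 1)), the replicate number as a block, and each library left out. The tests were run on simulated counts with known changes before use. Promoters were matched by symbol for 9 members, all but Pmaip1.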

Additional observations from a re-analysis of the deposited data

How the results depend on the processing

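Across 14 alternatives, 0 members passed the threshold, and the lowest adjusted p of any member was 0.0883, for Bax without knockout replicate 3. The direction stayed for 124 of 137 member values and turned for 13, all of Bid and Mcl1, whose differences were close to 0. Bid had log2 fold changes of 0.0023 with RLE scaling, 0.013 with no filter, 0.0035 by DESeq2, and -0.14 to 0.0896 with a library left out. Mcl1 had -0.071 with library size alone, -0.0092 with the stricter filter, -0.069 on log2(FPKM + 1), and -0.067 to 0.083 with a library left out. The members' median log2 fold change was 0.079 with the stricter filter, which leaves 7 members, 0.094 on log2(FPKM + 1), for which the cause was not tested, 0.11 with library size alone, and 0.092 to 0.27 with a library left out. The number of genes called was 181 by DESeq2 and 1 to 44 with a library left out, with 4 without knockout replicate 1 and 44 without knockout replicate 3; the cause was not tested. With the replicate number as a block 1 gene was called, 0 members were called and their median was 0.18. Deviations of libraries that share a number correlated at 0.033, -0.039 and -0.12, and 1 of 6 libraries correlated best with its own number. No pairing by number was seen, but 3 libraries per genotype cannot exclude one. The counts of Bbc3, Bak1 and Pmaip1 limit what could be detected for them.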
